A study of Mus musculus with 4 samples.

Results

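Chemokines and their receptors, the secreted guidance signals and the cell surface proteins that read them, were followed through 4 single-cell RNA-seq libraries of mouse liver to see which cells send and which receive. Members were every annotated gene whose symbol follows the naming of the family (Ccl and Cxcl ligands, Cx3cl1, Xcl1, Ccr and Cxcr receptors, Cx3cr1, Xcr1 and the atypical receptors Ackr1 to Ackr4), which gave 70 of the 55488 annotated features. Of these, 53 had at least 10 UMIs (unique molecular identifiers, each marking 1 captured transcript) in the kept cells, namely 31 of 48 ligands, 18 of 18 receptors and 4 of 4 atypical receptors. The other 17 are listed at the end.

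Primary liver cells came from 1 mouse per genotype, so each genotype is 1 library. The WT library came from a mouse with intact Yap and Taz, transcriptional co-activators of the Hippo pathway. The YAPKO, TAZKO and DKO libraries came from mice with floxed Yap, floxed Taz or both genes floxed, deleted by Cre recombinase under the albumin promoter. That promoter drives deletion in hepatocytes (HCs) and biliary epithelial cells (BECs), while the endothelial, stromal and immune cells of the same mice keep intact alleles. No treatment was given, the ages of these mice were not given in the sources used here, and HC and non-parenchymal fractions were isolated apart and mixed before capture, so the shares of cell types reflect that mixing.

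Chemokines are small secreted proteins, held on the heparan sulphate of vessel walls and tissue, that draw leukocytes along a gradient. Their receptors couple to inhibitory G proteins, and after binding they are phosphorylated, bound by arrestins and taken into the cell. Atypical receptors bind the same ligands without G protein signalling and clear or transport them. In the liver the sinusoid is lined by fenestrated endothelial cells (ECs), holds resident macrophages called Kupffer cells (KCs), and is wrapped by stellate cells (HSCs). Lymphocytes, monocytes and neutrophils pass through it.

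The libraries held between 7711 and 14418 barcodes. After removal of barcodes with under 500 or over 6000 detected genes or over 10% mitochondrial UMIs, 30362 cells were kept, with 6275 to 8638 per library and median depths of 3555.5 to 7337 UMIs. Members made up 0.150% to 0.202% of kept UMIs. A total of 94 kept barcode sequences occurred in more than 1 library. Cells were clustered without the members and 14 types were named from other marker genes, so each name means cells like that type, and these are rebuilt types, not those of the study. Deletion was visible in HCs, where Yap1 was at 21.4 CPM (UMIs of the gene per 1000000 UMIs of the same cells) in WT, 4.76 in YAPKO, 47.0 in TAZKO and 4.56 in DKO. Wwtr1, which encodes TAZ, was at 5.18, 13.3, 1.45 and 2.43 CPM in the same order. HC depth differed widely between libraries, with medians of 1797 UMIs in TAZKO and 6440 in DKO. The TAZKO library held 45 neutrophils, and their 7 summed neutrophil markers stood at 27690 CPM against 134600 to 167700 CPM in the other 3 libraries. Cells named HSC carried all 10 EC markers, summed to 6698 to 9579 CPM against 14150 to 15180 CPM in ECs, and 8 KC markers summed to 388 to 2855 CPM. Values of members in HSCs that ECs or KCs also express should be read beside those numbers, and the part of EC and KC RNA in them was not tested.

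The summed level of ligands was highest in NK cells and lowest in B cells, and that of receptors was lowest in HCs. Summed over all ligands, the level averaged over the 4 libraries was 16720 CPM in NK cells, 6933 CPM in the 40 mature dendritic cells, 4510 CPM in neutrophils, 3736 CPM in T cells, 2552 CPM in KCs, 2476 CPM in HSCs and 2254 CPM in the cluster group of monocytes and macrophages. ECs stood at 632 CPM, HCs at 387 CPM and B cells lowest at 97.5 CPM. Summed receptors, atypical ones included, ran in another order, from 2617 CPM in neutrophils through 1782 CPM in mature dendritic cells, 1350 CPM in monocytes or macrophages and 1292 CPM in plasmacytoid dendritic cells (pDCs) to 112 CPM in ECs, 65.0 CPM in BECs and 7.42 CPM in HCs. The 3′ assay counts transcripts from their ends, so these CPM levels were not scaled by gene length.

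To test which type carried each member, UMI sums of the 12 types with at least 20 cells in every library were compared in edgeR, each type against the mean of the others, with the 4 libraries as replicates. The libraries differ in genotype, so the spread used in this test includes genotype. Of 41 members with enough counts for the test, 140 of 492 pairs of member and type were higher (adjusted p under 0.05 and at least 2-fold), which is 28.5%, against 16.2% of all gene and type pairs. Pairs that were lower numbered 83, or 16.9%, against 11.2% of all pairs. Of the pairs that were higher, 74 were ligands, 55 receptors and 11 atypical receptors. Monocytes or macrophages carried 21 of the 41 members at a higher level, against 13% of all genes in that contrast. HSCs also carried 21, against 24.5% of all genes. In HCs, 7 members were higher against a background of 27.0% of genes, a share (17.1%) below the background. For ECs the counts were 10 members against 22.9% of genes, a share (24.4%) near the background. The counts for the other types were 14 in KCs (background 16.5%), 12 in neutrophils (16.2%), 11 in T cells (13.3%), 11 in type 2 conventional dendritic cells or cDC2s (11%), 11 in pDCs (12.3%), 10 in NK cells (11%), 7 in type 1 conventional dendritic cells or cDC1s (12.2%) and 5 in B cells (13.8%).

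Receptors marked their cells more steadily than ligands did. Of 47 members with at least 50 UMIs in the 12 types tested, 28 had the same leading type in all 4 libraries. That held for 14 of 15 receptors, 11 of 28 ligands and 3 of 4 atypical receptors. In 21 members the range of the leading type over libraries lay wholly above that of the next type, which was so for 12 receptors, 8 ligands and 1 atypical receptor. These counts are a description and carry no test.

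Among the chemokines that act on neutrophils, HCs led for Cxcl1 and neutrophils themselves led for Cxcl2 and Cxcl3, while the receptor Cxcr2 was nearly restricted to neutrophils. Cxcl1, the mouse ligand KC that recruits neutrophils, stood in HCs at 64.0 CPM in WT, 188 CPM in YAPKO, 34.5 CPM in TAZKO and 35.9 CPM in DKO. The log2 difference of HCs from the mean of the other types was 5.39 ± 0.20 (SE, n = 4 libraries, edgeR adjusted p = 2.3e-27). Cxcl2 in neutrophils was at 381, 2339, 31.5 and 3145 CPM in WT, YAPKO, TAZKO and DKO, a spread far wider than that of the receptor. Its log2 difference was 9.69 ± 0.40 in neutrophils. Cxcl3 was seen in neutrophils of YAPKO (127 CPM) and DKO (147 CPM) and had 0 UMIs in those of WT and TAZKO. Cxcl5 had 66 UMIs in kept cells, with its highest value, 94.1 CPM, in the 28 BECs of YAPKO.

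Cxcr2, the receptor that brings neutrophils out of bone marrow and into tissue, was at 1108 CPM in WT, 1148 in YAPKO, 743 in TAZKO and 1479 in DKO neutrophils. The next type, HSCs, averaged 7.29 CPM, nearly all of it from YAPKO at 27.1 CPM. The 7 neutrophil markers summed to 587, 1663, 401 and 1074 CPM in HSCs of WT, YAPKO, TAZKO and DKO. Their part in the YAPKO value was not tested. Cxcr1, a second receptor for some of these ligands, had 55 UMIs in kept cells and 12.6 to 20.1 CPM in neutrophils. Cxcr2 and Cxcr1 exceeded the other types by 10.86 ± 0.24 and 9.03 ± 0.59 on the log2 scale, and the call of Cxcr1 was lost with DESeq2, at a difference of 7.97.

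The upstream sequences of Cxcl1, led by HCs, of Cxcl2 and Cxcl3, led by neutrophils, and of Cxcl10, led by monocytes or macrophages, are shown because these 4 genes of chromosome 5 had 3 different leading types by mean level. All 4 genes were matched by symbol to RefSeq promoters of GRCm38.p6, and bases 230 to 31 before each start are given, 5′ to 3′ on the strand of the gene. Capitals mark, on either strand, the kB motif, searched as GGGA and TTCC with any 2 bases between them, and the ISRE, searched as GAAA and GAAA with any 2 bases between them.
Cxcl1 (chr5:90891015-90891214, plus strand): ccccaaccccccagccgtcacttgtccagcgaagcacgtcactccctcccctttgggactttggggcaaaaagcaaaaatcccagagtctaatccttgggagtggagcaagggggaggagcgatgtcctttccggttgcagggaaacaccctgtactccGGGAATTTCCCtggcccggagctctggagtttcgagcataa
Cxcl2 (chr5:90903669-90903868, plus strand): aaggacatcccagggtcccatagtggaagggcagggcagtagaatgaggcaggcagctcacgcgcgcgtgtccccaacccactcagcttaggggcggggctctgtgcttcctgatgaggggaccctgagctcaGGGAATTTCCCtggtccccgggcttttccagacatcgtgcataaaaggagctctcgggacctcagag
Cxcl3 (chr5:90785871-90786070, plus strand): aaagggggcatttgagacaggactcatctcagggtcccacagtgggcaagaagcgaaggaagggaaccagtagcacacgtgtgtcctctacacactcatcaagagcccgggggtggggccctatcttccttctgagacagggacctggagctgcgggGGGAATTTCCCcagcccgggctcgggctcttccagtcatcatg
Cxcl10 (chr5:92348920-92349119, minus strand): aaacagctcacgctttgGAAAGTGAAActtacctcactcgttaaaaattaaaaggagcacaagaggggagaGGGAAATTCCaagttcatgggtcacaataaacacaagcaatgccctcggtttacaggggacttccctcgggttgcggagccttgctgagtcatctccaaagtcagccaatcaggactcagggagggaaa
The kB letters fall on both strands of the same site in Cxcl1, Cxcl2 and Cxcl3, so that 2 overlapping matches share the capitals. Over the 250 bases before the start, the kB motif was found in 1.21% of 32851 RefSeq promoters and in those of 6 of 46 member symbols (Ccl1, Ccr3, Cxcl1, Cxcl10, Cxcl2 and Cxcl3). The ISRE was found in 2.98% of promoters and in those of Ccl19, Cxcl10 and Cxcl14. The GAS motif, TTCNNNGAA, was found in 7.02% of promoters and in those of Ccl17, Ccr6 and Cxcl14. These are matches of letters on both strands and carry no measurement of binding.

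The ligands of Cxcr3, which are induced by interferon, had no steady sender, whereas the receptor sat on T cells, NK cells, cDC1s and pDCs. Cxcl9 led in monocytes or macrophages at 36.4 CPM in WT, 26.9 in YAPKO, 661 in TAZKO and 150 in DKO. In cDC1s it stood at 35.4, 92.6, 469 and 51.3 CPM, again highest in TAZKO. ECs were steadier, at 118, 96.2, 80.0 and 135 CPM. Cxcl9 was higher than in the other types in 7 types, the most of any member, with a log2 difference of 3.56 ± 0.50 in monocytes or macrophages (edgeR adjusted p = 9.3e-08) and 3.16 ± 0.47 in ECs. With types named from marker scores instead, the difference in monocytes or macrophages was 0.91 and the call was lost.

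Cxcl10, the partner gene beside Cxcl9, was at 255, 142, 280 and 98.8 CPM in monocytes or macrophages of WT, YAPKO, TAZKO and DKO. HSCs ranged from 27.1 CPM in DKO to 279 CPM in YAPKO, and ECs from 80.8 CPM in DKO to 176 CPM in YAPKO. Its leading type thus overlapped the next 2 in range. The WT value in monocytes or macrophages came from 8 of 110 cells with 46.9% of UMIs in 1, and with the limits on cells read as UMIs the difference of that type from the others was -0.043 on the log2 scale. Cxcl11, annotated as a polymorphic pseudogene in the GENCODE release used, had 373 UMIs in kept cells and at most 29.1 CPM, in TAZKO monocytes or macrophages. Cxcr3 was at 134 to 178 CPM in T cells and at 118 to 183 CPM in NK cells, ranges that overlap, and averaged 85.9 CPM in cDC1s and 81.8 CPM in pDCs. All 4 types exceeded the mean of the others, by 5.16 ± 0.16, 4.70 ± 0.22, 4.15 ± 0.22 and 3.70 ± 0.22 on the log2 scale.

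Cxcl12, a homeostatic ligand made by stroma that holds leukocytes and progenitors in place, was the leading ligand of HSCs in every library. It stood at 1345 CPM in WT, 960 in YAPKO, 1832 in TAZKO and 1303 in DKO HSCs, 6.98 ± 0.12 above the other types on the log2 scale (edgeR adjusted p = 1.2e-39). HCs came next at 60.2, 65.6, 135 and 80.7 CPM and were 3.76 ± 0.14 above the mean of the others. ECs followed at 23.9 to 42.5 CPM. Its receptor Cxcr4 led in neutrophils at 530, 608, 397 and 857 CPM, then in B cells at 142 to 216 CPM. Monocytes or macrophages, pDCs and cDC2s were also above the mean of the others for Cxcr4.

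All 4 atypical receptors were higher in ECs and in HSCs than in the mean of the other types. Ackr2 was also higher in B cells (3.36 ± 0.63) and HCs (1.29 ± 0.48), and Ackr3 in monocytes or macrophages (3.20 ± 0.74). Ackr3, which binds Cxcl12 and clears it, was at 8.19 CPM in WT, 21.6 in YAPKO, 15.1 in TAZKO and 27.1 in DKO ECs. Ackr2, a scavenger of inflammatory Ccl chemokines, was at 22.4 to 40.5 CPM in ECs and 7.08 ± 0.26 above the other types on the log2 scale. Ackr4, which takes up Ccl19, Ccl21 and Ccl25, was at 18.9 to 42.7 CPM in ECs (7.56 ± 0.27). Ackr1, the Duffy antigen receptor of venules, averaged 29.2 CPM in HSCs and 28.3 CPM in ECs, with overlapping ranges of 18.5 to 34.7 CPM and 15.9 to 39.4 CPM. For the other 3 the HSC averages were 12.7 CPM (Ackr2), 9.03 CPM (Ackr3) and 13.04 CPM (Ackr4), and the EC markers in those cells are given above.

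Cxcl16, a membrane-bound ligand that is cut to a soluble form, was the most abundant ligand of ECs, and its receptor Cxcr6 was confined mainly to T and NK cells. Cxcl16 was at 312, 345, 288 and 360 CPM in ECs of WT, YAPKO, TAZKO and DKO. KCs averaged 277 CPM, HSCs 241 CPM and the 40 mature dendritic cells, which were too few to test, 1016 CPM. It was above the mean of the other types in 6 types, ECs (3.89 ± 0.14), KCs, HSCs, monocytes or macrophages, cDC2s and cDC1s. Cxcr6, which retains lymphocytes in the sinusoids, was at 437, 402, 346 and 334 CPM in T cells and at 228 to 358 CPM in NK cells. No other type averaged above 4.86 CPM.

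Cxcl13, the ligand that draws B cells into follicles, led in KCs at 229, 124, 158 and 29.3 CPM in WT, YAPKO, TAZKO and DKO, 7.68 ± 0.38 above the other types on the log2 scale. Its receptor Cxcr5 led in B cells at 59.9, 70.4, 87.7 and 55.6 CPM. No other type averaged over 3.09 CPM for Cxcr5, so sender and receiver were different cells in each library.

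Among the ligands of Ccr2, which calls monocytes out of bone marrow, HSCs led for Ccl2 in all 4 libraries. Monocytes or macrophages led for Ccr2 itself in all 4 libraries. They led for Ccl7 and Ccl12 by mean level, but in only 1 library for Ccl7 and in 2 for Ccl12. Ccl2 was at 261, 434, 87.9 and 53.6 CPM in HSCs of WT, YAPKO, TAZKO and DKO, 5.83 ± 0.29 above the other types on the log2 scale. Monocytes or macrophages ranged from 14.5 CPM in TAZKO to 137 CPM in WT. Ccl12 averaged 11.4 CPM and Ccl7 averaged 12.95 CPM in monocytes or macrophages, and both overlapped KCs in range. Ccr2 was at 517, 582, 692 and 622 CPM in monocytes or macrophages, and cDC2s, pDCs and cDC1s averaged 377, 306 and 306 CPM. Ccr2 was above the mean of the other types in 6 types, monocytes or macrophages (4.21 ± 0.24), cDC2s, cDC1s, pDCs, NK cells and T cells.

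The inflammatory Ccl ligands of lymphocytes and phagocytes held the largest counts of the family. Ccl5, a ligand of effector lymphocytes, had 77860 UMIs in kept cells and stood at 16820, 14700, 13800 and 12490 CPM in NK cells of WT, YAPKO, TAZKO and DKO. In T cells it was at 2996, 2670, 2484 and 5258 CPM. Of the 12 types tested, NK cells (8.87 ± 0.36) and T cells (6.71 ± 0.36) were above the mean of the other types for Ccl5, and the untested mature dendritic cells stood at 2242 to 8345 CPM. Ccl3 and Ccl4, made together by activated phagocytes and lymphocytes, led in neutrophils except in TAZKO. Ccl4 was at 864, 522, 18.9 and 1911 CPM in neutrophils and averaged 385 CPM in NK cells. Ccl3 was at 444, 507, 88.1 and 1375 CPM in neutrophils and averaged 83.0 CPM in NK cells.

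Ccl6 and Ccl9, rodent ligands of Ccr1, belonged to phagocytes and, for Ccl9, also to HCs. Ccl6 was at 1289, 1260, 1045 and 2078 CPM in neutrophils and at 1206, 1593, 985 and 817 CPM in KCs, overlapping ranges in which KCs led in YAPKO. In TAZKO, monocytes or macrophages were highest for Ccl6, at 1055 CPM, and they stood at 499 to 715 CPM in the other libraries. Ccl9 was at 267, 273, 331 and 232 CPM in monocytes or macrophages and at 117, 122, 79.7 and 125 CPM in HCs, where it was the leading ligand on average. HCs exceeded the mean of the other types for Ccl9 by 3.50 ± 0.18 on the log2 scale. Barcodes with under 500 genes, 676 to 6237 per library, held Ccl9 at 30.9 to 116 CPM, and B cells at 8.50 to 27.8 CPM. Whether those barcodes hold free RNA or shallow cells was not tested.

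Ccr1, a receptor for Ccl3, Ccl5, Ccl6 and Ccl9, led in neutrophils at 676, 930, 403 and 1051 CPM, and monocytes or macrophages averaged 74.5 CPM. The lowest neutrophil value, 403 CPM, lay above the highest of monocytes or macrophages, 107 CPM.

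Ccl24, an eotaxin known for eosinophil recruitment, and its receptor Ccr3 were both led by KCs, which is 1 of 7 listed pairs led by a single type. Ccl24 was at 463, 480, 1492 and 303 CPM in KCs of WT, YAPKO, TAZKO and DKO (7.39 ± 0.18, edgeR adjusted p = 1.7e-33). Ccr3 was at 58.9, 47.9, 12.4 and 47.9 CPM in the same cells (7.0 ± 0.33), so the TAZKO library was highest for the ligand and lowest for the receptor. Monocytes or macrophages averaged 128 CPM of Ccl24, with KC markers summed to 2564 to 3255 CPM in that group against 20690 to 27530 CPM in KCs; their part was not tested. The other eotaxin, Ccl11, had 6 UMIs in the 12 types tested.

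The ligands of Ccr4 were found mostly in dendritic cells of some libraries, and Ccr7 in lymphocytes and mature dendritic cells. Ccl17, which draws Ccr4+ T cells, was seen in cDC2s of YAPKO (135 CPM) and DKO (295 CPM) and had 0 UMIs in those of WT and TAZKO. KCs held it at 0.351 CPM in TAZKO to 9.83 CPM in YAPKO, from 78 of 588 KCs in YAPKO, and the 28 YAPKO BECs at 161 CPM. In BECs of WT, YAPKO, TAZKO and DKO, the 6 cDC2 markers summed to 14.1, 314.5, 0 and 0 CPM. The 6 mature dendritic cell markers summed to 79.8, 331, 149 and 246 CPM there, and the part of both was not tested. Ccl22, its neighbour on chromosome 8, stood at 59.4 to 1629 CPM in the 4 to 18 mature dendritic cells per library and averaged 19.8 CPM in cDC2s. Ccr4 had 82 UMIs in kept cells and 1.47 to 8.05 CPM in T cells.

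Ccr7, which guides cells to lymph nodes, was at 1015, 1740, 1604 and 1972 CPM in mature dendritic cells. Among the types with enough cells to test, B cells averaged 177 CPM and T cells 123 CPM, 6.58 ± 0.22 and 6.03 ± 0.23 above the other types on the log2 scale. Its ligand Ccl19 was counted under ENSMUSG00000071005 at 17.2, 15.7, 13.1 and 35.8 CPM in HSCs (7.18 ± 0.35), while near-identical copies of Ccl19 and Ccl21 were at or near 0, so reads that fit several copies may be missing. Ccl21a had 5 UMIs.

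For the homing receptors Ccr9 and Ccr6, the ligands Ccl25 and Ccl20 were at low levels in the tested types. Ccr9, the receptor for the thymic and intestinal ligand Ccl25, led in pDCs at 400, 452, 1105 and 661 CPM, 7.55 ± 0.24 above the other types, and averaged 58.0 CPM in T cells. Ccl25 was nearly level over the types, averaging 16.9 CPM in NK cells and 12.1 CPM in KCs, and is the single tested member that was higher in no type. Ccr6 led in B cells at 66.2, 57.9, 36.7 and 46.7 CPM (6.96 ± 0.30), while its ligand Ccl20 had 37 UMIs in kept cells. Ccl27a, counted under ENSMUSG00000073888, stood at 22.4 to 55.9 CPM in the 69 BECs and at 14.0 to 24.5 CPM in HCs, ranges that overlap. The BECs numbered 4 to 28 per library, and the 4 of DKO held 44651 UMIs of all genes together, so their values rest on few counts. HCs were 3.23 ± 0.16 above the other tested types for Ccl27a. Barcodes under 500 genes held it at 7.72 to 14.1 CPM. Its receptor Ccr10 had 36 UMIs in the 12 types tested.

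Cx3cr1, the receptor of patrolling monocytes and resident macrophages, led in monocytes or macrophages at 302, 320, 505 and 453 CPM (5.93 ± 0.25), while its membrane-bound ligand Cx3cl1 had 73 UMIs in kept cells, led among tested types by HSCs at 3.70 to 9.08 CPM. Xcl1, a lymphotactin that NK cells release, and its receptor Xcr1 on cross-presenting cDC1s formed the steadiest pair of sender and receiver. Xcl1 was at 1658, 1629, 1817 and 1736 CPM in NK cells of WT, YAPKO, TAZKO and DKO (9.78 ± 0.25). Xcr1 was at 452, 395, 514 and 458 CPM in cDC1s (10.34 ± 0.27), and was higher in no other type. Ccl1, annotated over chr11:82176657-82305690, led in NK cells at 0 to 61.9 CPM with 120 UMIs in the 12 types tested, Ccl8 in monocytes or macrophages at 0 to 55.5 CPM, and their receptor Ccr8 had 19 UMIs in kept cells.

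**Figure D1:**
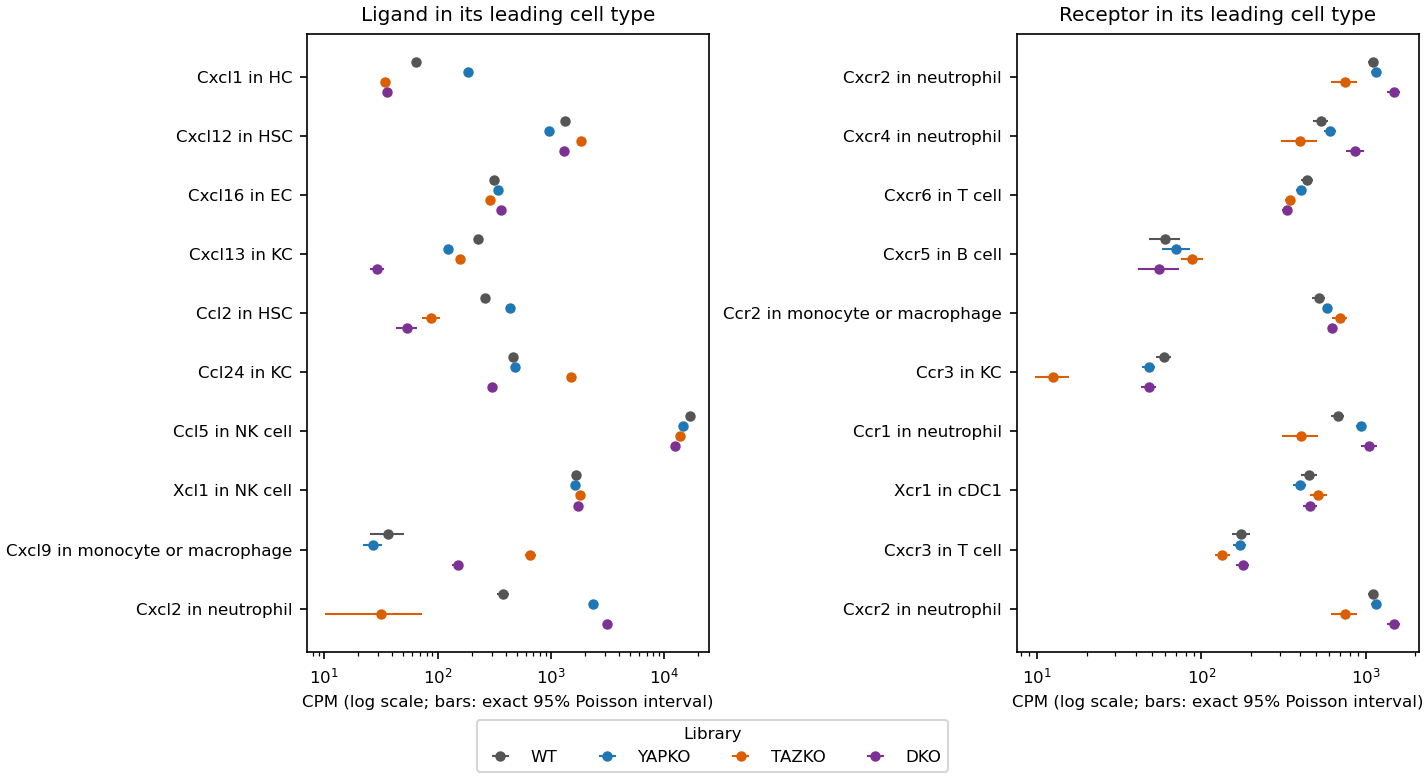
Level of 10 ligands (left panel) and of a receptor of each (right panel) in the leading cell type of each gene, as CPM on a log axis, with 1 point per library and bars for the exact 95% Poisson interval of counting error. Xcl1, at 1629 to 1817 CPM, and Xcr1, at 395 to 514 CPM, hardly move between libraries, while Cxcl2 in neutrophils runs from 31.5 to 3145 CPM.

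Within types, members separated subsets of cells. Among T cells, Cxcr6 averaged 809 CPM in a cluster led by Trdc and Il18r1 and 686 CPM in one led by Art2a, against 17.3 CPM in the cluster led by Lef1. Ccr7 ran the other way, averaging 303 CPM in the Lef1 cluster and 261 CPM in one led by Cd8b1 and Dapl1. Ccl5 averaged 28320 CPM in the T cell cluster led by Cd8a and Gzmk, with 20320 CPM in the lowest library. No test was made between clusters, whose borders were drawn from other genes of the same cells.

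NK cells held 2 clusters. The cluster led by Cd160 carried Cxcr6 at 338 to 496 CPM and Xcl1 at 1980 to 2499 CPM. The cluster led by Prf1 and Klra4 carried Cxcr6 at 0 to 31.8 CPM and Xcl1 at 243 to 667 CPM, and instead held Cx3cr1 at 78.4 to 110 CPM, against 0 to 7.04 CPM in the first. The ranges of all 3 genes were apart in these libraries.

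Among monocytes or macrophages, clusters led by Chil3 and by Ms4a7 were apart in Ccr2, while their ranges of Cx3cr1 overlapped. Ccr2 was at 829 to 1069 CPM in the cluster led by Chil3 and at 310 to 496 CPM in the cluster led by Ms4a7. Cx3cr1 averaged 557 CPM in the Ms4a7 cluster (486 to 586 CPM) and 337 CPM in the Chil3 cluster (217 to 558 CPM). The cluster led by Prg4 and Gpnmb held Ccl6 at 898 to 4374 CPM. The HC clusters differed in Cxcl12, at 33.3, 25.9, 101 and 42.1 CPM in one and 71.1, 73.8, 148 and 103 CPM in the other, beside 32.6, 28.1, 83.8 and 42.5 CPM in barcodes under 500 genes.

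**Figure D2:**
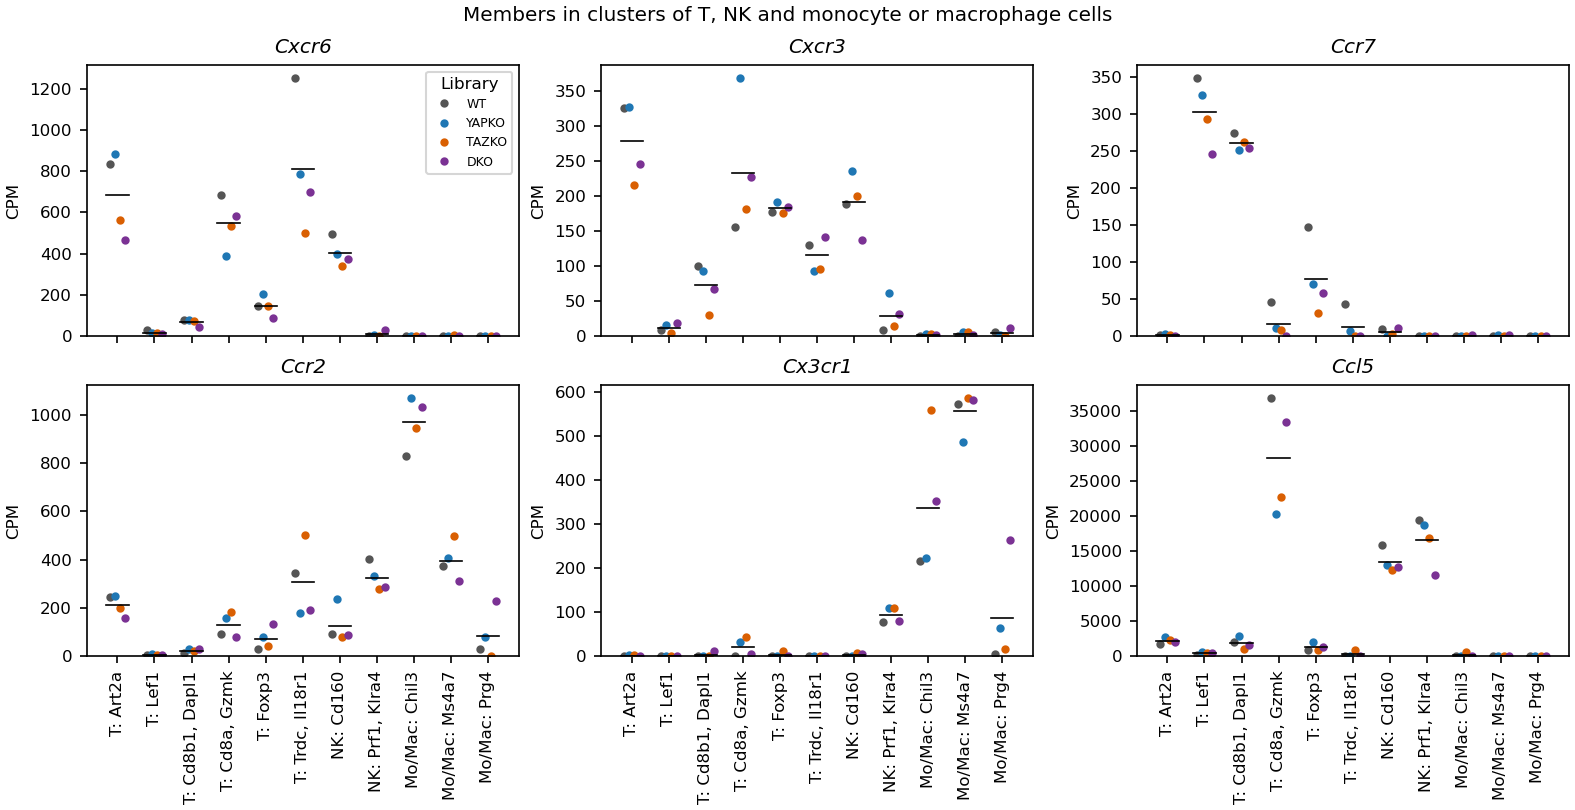
CPM per library (points) and mean over 4 libraries (lines) of Cxcr6, Cxcr3, Ccr7, Ccr2, Cx3cr1 and Ccl5 in clusters within T cells, NK cells and monocytes or macrophages (Mo/Mac), named by leading genes. Ccr7 is high in the Lef1 cluster and the Cd8b1 and Dapl1 cluster, where Cxcr6 is low in each library.

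The share of cells with a receptor UMI depended on depth, so it is given at full depth and with every cell thinned to 1000 UMIs. Cxcr2 was seen in 84.1% ± 4.24 of neutrophils (SD, n = 4 libraries) and in 66.9% after thinning. Ccr9 was seen in 85.4% ± 9.66 of pDCs and in 43.0% after thinning, and Xcr1 in 84.6% ± 1.45 of cDC1s and in 30.9%. The same receptors were seen in at most 0.415% of HCs, cells that should lack them, which serves as the level that free RNA gives. Median depths were 1742 to 2176 UMIs in neutrophils and 1797 to 6440 UMIs in HCs. Among lymphocytes, Cxcr6 was seen in 49.5% ± 2.07 of T cells (25.5% thinned) and Ccr7 in 34.8% ± 4.92 of B cells (16.8% thinned). Ackr2 was seen in 16.4% ± 6.34 of ECs and in 2.80% after thinning.

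Comparisons of the knock-out libraries with WT ask whether deletion in HCs and BECs goes with other levels of the family in HCs and in the cells around them. With 1 library per genotype no test between genotypes is possible. Ratios are given with exact 95% intervals that cover counting error only, a library with 0 UMIs is set to a floor of 3 counts and the ratio given as a bound against it, and a difference between mice cannot be told apart from one between genotypes. All 3 comparisons share the WT library. Of 147 member and type pairs with at least 50 UMIs in YAPKO and WT together, 26 (17.7%) were at least 2-fold higher in YAPKO and 17 (11.6%) at least 2-fold lower, against 2.36% and 2.31% of all gene and type pairs. In TAZKO, 23 of 134 pairs (17.2%) were higher and 27 (20.1%) lower, against 8.88% and 2.83%. That balance turned to 28 higher and 20 lower without the 8% of cells with the highest Scrublet (doublet) scores, and was 18 and 30 with the median of all genes set to 0. Leaving out the cells with the highest Scrublet scores gave 36 higher and 7 lower in YAPKO. In DKO, 37 of 157 pairs (23.6%) were higher and 13 (8.28%) lower, against 4.89% and 2.49%. The median log2 ratio over members was 0.13 in YAPKO, -0.01 in TAZKO and 0.26 in DKO, beside 0.07, 0.20 and 0.11 over all genes.

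In HCs, the targeted cells, the members past 2-fold on the CPM scale were higher and none was lower in any of the 3 comparisons. The counts were 7 of 13 in YAPKO (background 7.49%), 5 of 12 in TAZKO (20.5%) and 7 of 17 in DKO (14.7%). Lower genes made up 0.639%, 1.42% and 2.03% of all genes in the same comparisons. HCs lay in 2 clusters, with median depths of 2224 and 16616 UMIs. The deeper one held 369 of 2192 HCs in WT, 556 of 1185 in YAPKO, 1039 of 2984 in TAZKO and 934 of 2890 in DKO. The part of these shares in the ratios was not tested. All genes together were shifted upward in HCs, with median log2 ratios of 0.43, 0.59 and 0.47, so ratios are also given relative to that shift. Relative to it, 6 members were higher in YAPKO, 3 in TAZKO and 6 in DKO, while 0 were lower in YAPKO, 2 in TAZKO (Cxcl1 and Ccl9, the latter at -1.14) and 2 in DKO (Cxcl1 and Ccl6, the latter at -1.07). The share of all genes past 2-fold relative to the shift was not counted. Before its removal, the 5th to 95th percentiles of all genes in HCs were -0.23 to 1.15 in YAPKO, -0.44 to 1.53 in TAZKO and -0.47 to 1.62 in DKO.

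Cxcl14, a ligand of epithelia and stroma, separated the libraries with Yap deleted from the others. It stood in HCs at 1.16 CPM in WT, 23.7 in YAPKO, 1.09 in TAZKO and 60.8 in DKO. A UMI of it was found in 18 of 2192, 197 of 1185, 13 of 2984 and 893 of 2890 HCs, so the signal was spread over many cells. Against WT its log2 ratio came to 4.35 (3.73 to 5.04) for YAPKO and 5.71 (5.11 to 6.39) for DKO, or 3.92 and 5.23 above the median of all genes. Both HC clusters showed the same order, with 38.3 and 20.7 CPM in YAPKO and 79.8 and 49.8 CPM in DKO. Barcodes under 500 genes followed it, at 0.398, 8.56, 0.708 and 19.3 CPM. In KCs the level was 30.7, 29.4, 18.4 and 60.8 CPM.

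Interferon-induced ligands in HCs differed between libraries in another order. Cxcl9 was at 3.01, 17.8, 60.7 and 23.6 CPM in HCs of WT, YAPKO, TAZKO and DKO, with log2 ratios of 2.56, 4.33 and 2.97. Those UMIs came from 30, 56, 192 and 206 cells, and the cell with the most held 30%, 31%, 42% and 11% of them. Barcodes under 500 genes held Cxcl9 at 9.35, 8.56, 13.9 and 25.8 CPM, so the HC values of WT and DKO lay below that level. Cxcl10 was at 0.899, 15.2, 1.74 and 12.5 CPM, highest in YAPKO and DKO, with log2 ratios of 4.08 and 3.80 in these, and at 2.99, 12.2, 2.83 and 6.44 CPM in barcodes under 500 genes.

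Cxcl1 in HCs was higher in YAPKO than WT by 1.55 on the log2 scale (1.12 above the median of all genes) and lower in TAZKO and DKO, at -0.89 and -0.83, which is short of 2-fold before the shift and -1.48 and -1.31 relative to it. It was found in 341, 526, 217 and 548 HCs. Barcodes under 500 genes held it at 27.1, 173, 14.4 and 14.2 CPM, in the same order except between TAZKO and DKO. Cxcl2 in HCs was at 0.423, 8.11, 0.145 and 2.78 CPM, and Cxcl2 in barcodes under 500 genes reached 31.8 CPM in YAPKO, above the HC level there. Cxcl12 in HCs was higher in TAZKO by 1.17 on the log2 scale, or 0.58 above the median of all genes.

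**Figure D3:**
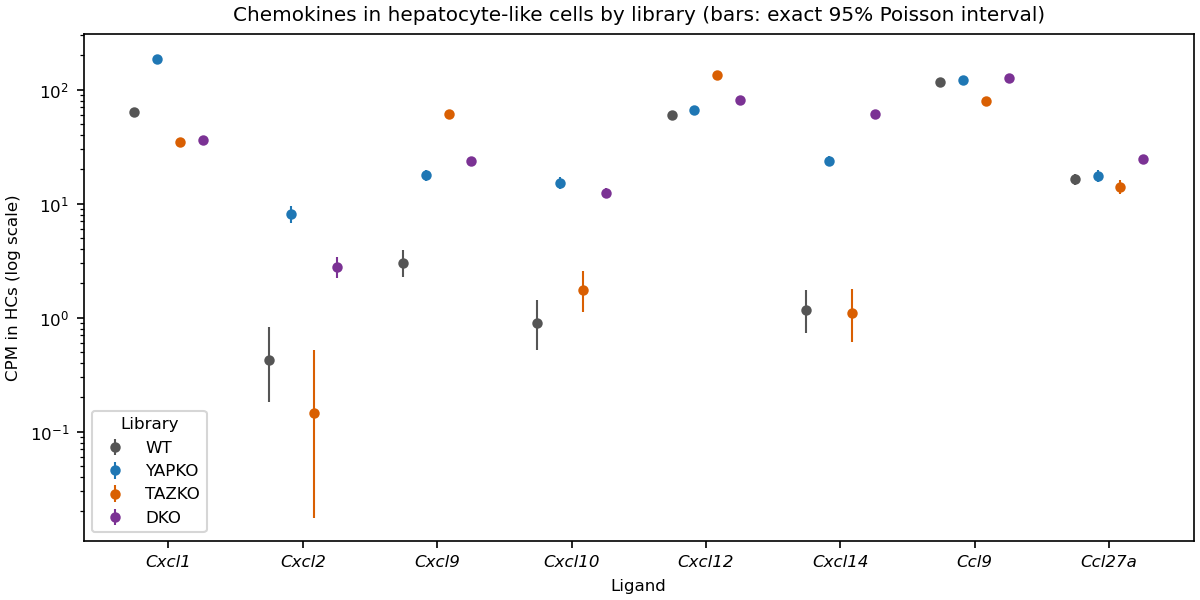
CPM of 8 ligands in HCs on a log axis, with 1 point per library and bars for the exact 95% Poisson interval of counting error. Cxcl14 is at 23.7 and 60.8 CPM in YAPKO and DKO and near 1 CPM in WT and TAZKO, while Ccl9 and Ccl27a stay close together.

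Cells without the deletion also differed between libraries. In HSCs, Ccl2 had log2 ratios to WT of 0.73 in YAPKO, -1.57 in TAZKO and -2.29 in DKO, and Cxcl10 was lower in DKO by -2.67 (-3.15 to -2.22). In KCs, Ccl24 was higher in TAZKO, at 1.69 (1.63 to 1.75), and Ccr3 lower, at -2.24. Cxcl13 in KCs was lower in DKO, at -2.97 (-3.19 to -2.76), and Cxcr4 higher, at 2.57 (2.17 to 2.99). In ECs, the scavenger Ackr3 was higher in all 3 libraries than in WT, at 1.40, 0.88 and 1.73. In pDCs, Ccr9 was higher in TAZKO, at 1.47, while Ccl4 in T cells was higher in DKO, at 2.25. The WT value of Ccl4 came from 11 T cells, and the cluster led by Cd8a and Gzmk, where Ccl4 was at 1210 CPM in WT and 1861 CPM in DKO, held 13 of 285 T cells in WT and 92 of 723 in DKO. Xcl1 in NK cells had intervals that held 0 in all 3 comparisons.

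Neutrophils differed in several ligands. Cxcl2 in neutrophils had log2 ratios of 2.62 in YAPKO, -3.60 in TAZKO and 3.05 in DKO, and Ccl4 was lower in TAZKO, at -5.52 (-7.80 to -3.96). The TAZKO values rest on 5 and 3 UMIs in 45 cells with low neutrophil markers, as given above. Those cells also held markers of dividing cells at 1788 CPM (16.7 to 298 CPM in the other libraries), of cDC2s at 768 CPM (120 to 163 CPM) and of cDC1s at 541 CPM (60.2 to 87.6 CPM), and their part was not tested. Cxcl3 was at least 28.5-fold higher in YAPKO neutrophils than the limit that 0 UMIs allow in WT (3 counts per library), and came from 17 cells.

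Several of the largest ratios rested on few cells. Ccl17 in cDC2s, with 0 UMIs in WT, was at least 15.9-fold higher in YAPKO and at least 34.9-fold higher in DKO than the floor of 3 counts, from 13 and 10 cells. Ccl22 in cDC2s of DKO was higher by 4.46 on the log2 scale, with 63 UMIs against 1. The 6 markers of mature dendritic cells summed to 22.6, 63.6, 47.6 and 87.6 CPM in cDC2s of WT, YAPKO, TAZKO and DKO, and their part was not tested. Ccl5 in WT HSCs came from 4 of 247 cells, and 95% of its UMIs were in 1 cell. The lower values in YAPKO (-3.69) and TAZKO (-3.99) thus rest on that cell, while DKO was at 0.72. NK markers summed to 51.7, 11.4, 13.9 and 20.3 CPM in HSCs of WT, YAPKO, TAZKO and DKO, and their part was not tested. Ccl5 in WT B cells came from 5 of 421 cells with 94% in 1 cell, while NK markers summed to 41.8 CPM in WT B cells and 0 to 4.14 CPM in the other 3 libraries; their part was not tested. The lower values there were -3.43, -4.81 and -3.74. Ccl5 in cDC1s was higher by 4.29 in TAZKO and 4.90 in DKO, from 1 cell in TAZKO and with 97% in 1 cell in DKO. NK markers in cDC1s summed to 6.555, 9.166, 49.42 and 19.25 CPM in WT, YAPKO, TAZKO and DKO, and their part was not tested. Cxcl10 in cDC2s, with 0 UMIs in WT, was at least 17.4-fold higher in TAZKO and at least 5.92-fold higher in DKO than the floor of 3 counts, from 2 and 7 cells.

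Myeloid cells gave the rest of the largest ratios. Cxcl13 in monocytes or macrophages was lower in YAPKO, at -6.36 (-7.70 to -5.28), and at least 96.3-fold lower in DKO, where it had 0 UMIs and was set to the floor of 3 counts, with TAZKO at -2.94, while the WT value came from 8 of 110 cells with 70% in 1. Ccl8 in monocytes or macrophages was higher in YAPKO, at 4.74 (2.87 to 7.79), from 20 of 364 cells. Ccl5 in monocytes or macrophages of TAZKO was higher, at 4.53, from 9 of 87 cells. Ccl2 in monocytes or macrophages was lower in YAPKO, TAZKO and DKO, at -1.5, -3.24 (-4.48 to -2.22) and -2.45, against a WT value with 37.1% of its UMIs in 1 cell. Ccl4 in cDC1s was lower in YAPKO, TAZKO and DKO, at -5.24, -2.66 and -2.56, against a WT value from 7 of 47 cells.

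The same limit applied outside the immune cells. Ccr9 in HSCs of TAZKO, with 64 UMIs against 0 in WT, came from 7 of 164 cells. The pDC marker Siglech stood at 0, 20.7, 75.5 and 36.4 CPM in HSCs of WT, YAPKO, TAZKO and DKO. The list of 6 pDC markers summed to 1856, 2230, 1531 and 1423 CPM in the same order, lower in TAZKO than in WT. Their part was not tested. Ccl24 in HSCs was lower in YAPKO, at -2.95, where the KC markers in HSCs were also lowest, at 388 CPM against 1865 CPM in WT, and their part was not tested. Cxcl2 in ECs of YAPKO was higher, at 4.63 (3.23 to 6.53), from 8 of 1285 cells with 74% of UMIs in 1.

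**Figure D4:**
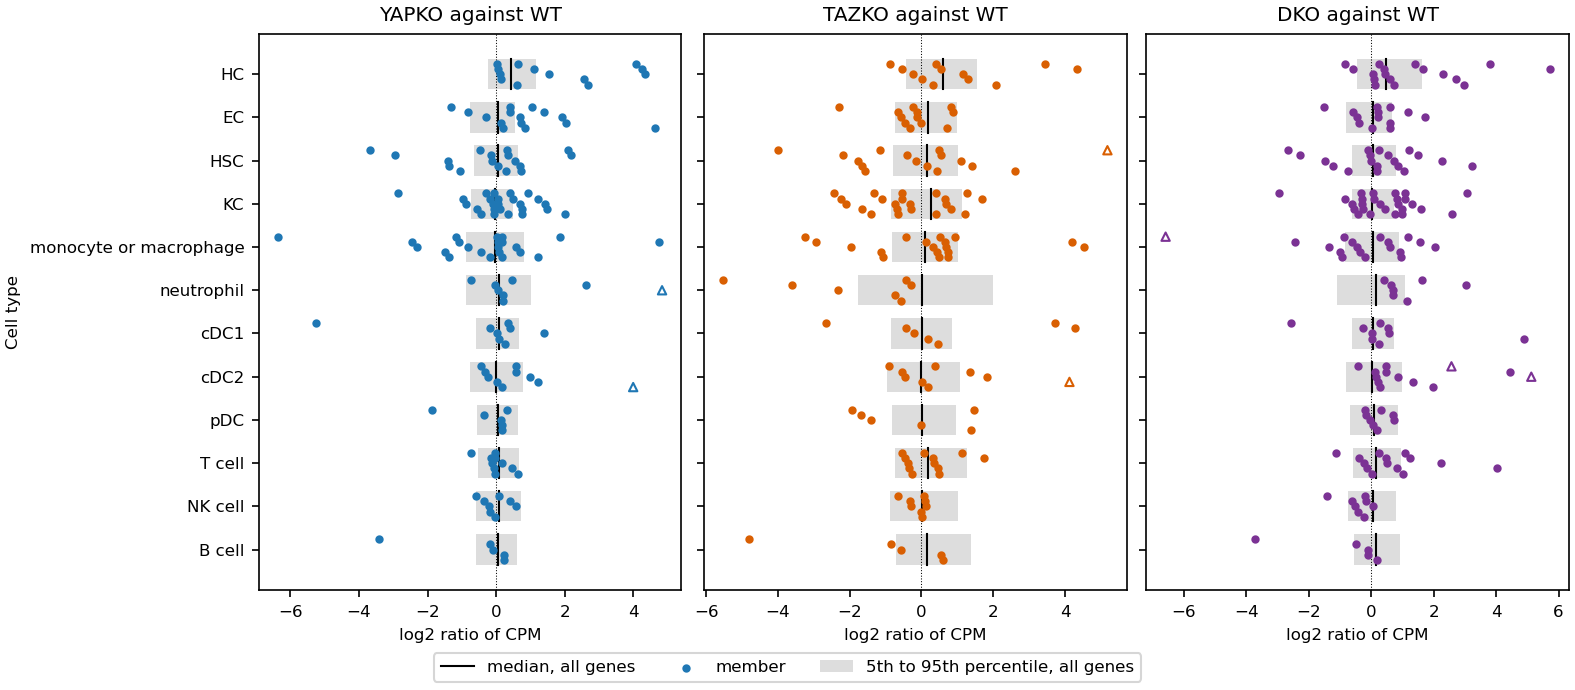
Log2 ratio of CPM to WT of each member and type pair with at least 50 UMIs (points), by cell type, for YAPKO, TAZKO and DKO. Grey bars span the 5th to 95th percentile of all genes with at least 50 UMIs and black lines their median, open triangles are pairs with 0 UMIs in a library drawn at their bound, and many points lie outside the bars.

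Genes that carry, stop or shape the signal were looked up as a list of 33, all present in the files. A list of 13 genes of signal transduction held those that link receptors to G proteins, phosphoinositide 3-kinase and Rac, and the arrestins Arrb1 and Arrb2. Of the 13, 12 were higher in neutrophils than in the mean of the other types, among them Gnai2, Rac2 and Dock2, and 0 were lower. In HCs 0 were higher and 12 lower. ECs had 3 higher (Arrb1, Arrb2 and Gnb1) and 7 lower, and HSCs had 1 higher (Arrb1) and 7 lower. Of 8 genes that end the signal, the receptor kinases and RGS proteins, 6 were higher in monocytes or macrophages, 5 each in KCs, cDC2s and neutrophils, and 0 in HCs and ECs, where 8 and 7 were lower. For 8 genes that shed, cut or present chemokines, HCs had the most higher, at 5 (Dpp4, which trims ligands, Ext1, Glce, Ndst1 and Sdc1, of heparan sulphate), and ECs and HSCs had 3 each. HCs also had 2 lower, Adam10 (-1.57) and Adam17 (-1.40), and 27.0% of all genes were higher in HCs. All 4 related genes were higher in HSCs, where 24.5% of all genes were, but each had a larger difference in another type. Gpr182 was at 7.69 in ECs beside 6.76 in HSCs on the log2 scale, Cmklr1 at 5.85 in KCs beside 2.14, Ccrl2 at 4.26 in neutrophils beside 1.46 and Rarres2 at 5.30 in HCs beside 3.73. The EC and KC markers in HSCs are given above. In the same fit 16.2% of all gene and type pairs were higher and 11.2% lower, taken over all types together. The share of all genes that were lower in HCs, ECs or HSCs alone is not given here.

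Members that were not seen, or hardly, complete the family. Those with 0 UMIs in kept cells were Ccl21d, Ccl21c, Ccl27b, the pseudogenes Ccl19-ps1 and Ccl19-ps3, 3 entries of Ccl21b, 2 entries of Ccl27a (ENSMUSG00000095247 and ENSMUSG00000093828), 1 of Ccl19 (ENSMUSG00000094661) and 1 of Ccl21a (ENSMUSG00000095320). A further 5 members had under 10 UMIs, Ccl28 with 7, Ccl21a (ENSMUSG00000094686) with 5, Cxcl15 and Cxcl17 with 2 each and Ccl26 with 1. Several of the 12 lie on unplaced scaffolds, and copies that share sequence cannot be told apart by 3′ reads. Of the 53 detected members, 12 had too few counts for the test of types (Ccr4, Cxcl5, Ccl22, Ccr8, Cx3cl1, Cxcl11, Cxcl3, Ccl20, Ccr10, Ccl11, Ccl17 and Ccl8).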

How the data were processed

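Single-cell RNA-seq libraries (10x 3′ chemistry) of liver cells from 1 WT, 1 YAPKO, 1 TAZKO and 1 DKO mouse were analysed. The deposited matrices hold whole-number UMI counts per gene and barcode, not normalized, which the authors made with Cell Ranger 6.0.1 on mm10 according to the submitters' notes. Coordinates of genes are from GENCODE vM21. Kept barcodes had between 500 and 6000 genes with a UMI, and no more than 10% of UMIs from mitochondrial genes. Counts were scaled to 10000 per cell, and 2000 variable genes without the members were reduced to 20 principal components, aligned between libraries by a Harmony-type correction and clustered by the Louvain method (igraph 0.11.9, resolution 0.4). Clusters were named from 17 lists of 118 markers that hold no member, and 12.95% of cells in 12 clusters stayed unnamed. No doublets were removed from the main values, and leaving out the 8% with the highest Scrublet scores in each library was an alternative.

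UMIs were summed per type and library and given as CPM of the same cells. Types were compared with edgeR 4.0.16 (R 4.3.3; quasi-likelihood test, library as covariate, filterByExpr, Benjamini-Hochberg per contrast, called at an adjusted p under 0.05 and at least 2-fold). Because types were built from other genes of the same cells, the test asks how steady a difference is over libraries. Ratios to WT carry exact conditional binomial intervals, and levels exact Poisson intervals, at 95%. Scripts were tested on simulated data. Members and gene lists were chosen with earlier results of these data known. Named with values were, in each type, the 3 ligands and 3 receptors with the highest mean CPM among those with at least 20 UMIs, the listed ligand and receptor pairs, and per comparison the 5 pairs with the largest ratio in each direction. Some members enter the counts but are not reported here by name. Alternatives changed the cell limits, the batch correction, the resolution, the way types were named, the UMI minimum, the size factors, the filter, the covariate and the tool (DESeq2 1.42.0), and left out each library. Depth per library is given in the report, and the intervals do not cover differences between mice.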

Additional observations from a re-analysis of the deposited data

Results flagged for a closer look

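Signal of 4 members lay mostly in cells that were given no type and that no comparison above uses. Of the UMIs of Ccl11, the eotaxin that acts on Ccr3, 96.6% were in unnamed clusters. Nearly all of these, 172 UMIs, came from a cluster of 39 cells led by Igfbp6, Clec3b, Mfap5 and Dpt, genes of connective tissue fibroblasts, at 0, 764, 280 and 588 CPM in WT, YAPKO, TAZKO and DKO. In the same order that cluster held only 8, 7, 10 and 14 cells, with 0, 67, 30 and 75 UMIs of Ccl11. The same cells held 162 UMIs of Ackr3, at 118, 559, 420 and 431 CPM. Of the UMIs of Ccl1, 60.4% were in unnamed clusters, with 183 in a cluster of 457 cells whose leading genes include Hist1h2ap, H1f5 and Elane. Among the marker lists, T cells scored highest in that cluster, at 1.71, and dividing cells next, at 0.897. Of the UMIs of Ccr10, 75.0% were in unnamed clusters, with 43 in that same cluster of 457 cells. Of the UMIs of Ccr8, the receptor for Ccl1 and Ccl8, 52.6% were in unnamed clusters.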

How the results depend on the processing

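No paired analysis was possible because each genotype has 1 library, so the groups share fewer than 2 replicate numbers. Counts of pairs of member and type that were at least 2-fold higher than WT (main values 26 in YAPKO, 23 in TAZKO and 37 in DKO) were 11, 14 and 21 with the limits on cells read as UMIs, 58, 43 and 75 with types from marker scores, 49, 39 and 60 at a minimum of 20 UMIs, and 10, 11 and 20 at 200 UMIs. Counts of lower pairs (main values 17, 27 and 13) were 8 in YAPKO and 17 in TAZKO with the limits read as UMIs, 29, 42 and 28 with types from marker scores, 31 in YAPKO and 21 in DKO at 20 UMIs, 7, 14 and 6 at 200 UMIs, 21 in DKO without batch correction and 7 in YAPKO without the top 8% of Scrublet scores. Without the top 8% of Scrublet scores the counts were 36, 28 and 45 higher and 7, 20 and 10 lower, and with the median of all genes set to 0 they were 25, 18 and 33 higher and 17, 30 and 17 lower. With a minimum of UMIs or limits read as UMIs, fewer or more pairs and cells enter. The cause of the other shifts was not tested. Types against each other gave 140 higher pairs, 93 with the limits read as UMIs, where 9 types had enough cells, 132 to 141 with a library left out, and 132 with DESeq2. Of these 140, 129 were also called by DESeq2, and 104 with types from marker scores, which gave 174 calls over 15 types. Cxcl10 in monocytes or macrophages reversed to -0.043 (log2) with the limits read as UMIs. Alternatives chosen after seeing the data left out neutrophils (24, 23 and 34 higher, 17, 24 and 13 lower) or pairs not above the barcodes under 500 genes (20, 21 and 33 higher, 16, 26 and 12 lower). Thinning lowered the share of cells with a UMI to 66.9% for Cxcr2 in neutrophils, 36.9% for Ccr2 and 29.7% for Cx3cr1 in monocytes or macrophages, 25.5% for Cxcr6 and 14.1% for Cxcr3 in T cells, 43.0% for Ccr9 in pDCs, 30.9% for Xcr1 in cDC1s, 16.8% for Ccr7 and 7.13% for Cxcr5 in B cells, and 2.80% for Ackr2 in ECs, as its construction removes UMIs. Of 30 named ratios to WT, 27 stayed past 2-fold in the same direction under the alternatives that gave a value, and 3 of Ccl5 did not, at -0.24 in DKO B cells and -0.99 in TAZKO HSCs with types from marker scores and at 0.58 in TAZKO monocytes or macrophages with the limits read as UMIs. Of 40 tests of a member in its leading type, 34 kept their direction and call. Beside Cxcl10, the call was lost for Ccl1 (log2 6.86), Ccl12 (5.15) and Cxcr1 (7.97) with DESeq2, for Cxcl14 in monocytes or macrophages (1.43) with the limits read as UMIs and for Cxcl9 in monocytes or macrophages (0.91) with types from marker scores. Depth limits members under 50 UMIs, BECs, mature dendritic cells and the TAZKO neutrophils.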
